A study of Mus musculus with 11 samples.

Results

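Club cells were taken from single-cell RNA libraries of whole mouse lung by the unique molecular identifiers (UMIs, each counting 1 captured transcript) of 8 genes. A barcode entered with 1000 to 30000 UMIs, at most 14% mitochondrial UMIs, at least 50 UMIs of Scgb1a1 and at least 5 of Cyp2f2. It was left out with more than 1 UMI of the ciliated-cell genes Foxj1, Ccdc153 and Tmem212 together, more than 3 of the alveolar type 2 (AT2) genes Slc34a2 and Lamp3 together, or more than 1 of the leukocyte gene Ptprc. Of 69267 barcodes within the UMI and mitochondrial limits, 316 met the rule, from 16 to 51 in each of the 11 libraries. Because measured values of Scgb1a1 and Cyp2f2 chose the cells, the levels of these 8 genes are given as a description and were not tested.

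The study made 3′ libraries from dissociated lungs of aged mice on 10x Genomics Chromium and deposited them on 2 occasions. It comprised 1 wild-type library (WT, 22 club barcodes), 3 libraries of p21 heterozygotes labelled +/- (p21Het 1 to 3, with 21, 51 and 16), 5 of p21mTert mice labelled +/mTert (replicates 1 to 5, with 31, 34, 31, 40 and 27) and 2 of p21mTertCD mice labelled +/mTertCD (24 and 19). All carry the age label of 18 months except p21Het 1 and p21mTert 1, whose age labels read 19 and 20 months although their titles give 18. By the title of the series, mTert is induced in p21-positive cells, and p21 is the product of Cdkn1a; the labels do not spell out CD. WT and the replicates numbered 1 of p21Het and p21mTert form the earlier deposit, and no test used the single wild-type library. The labels do not say that each library came from a separate animal, so the p-values refer to these libraries and not to a spread between animals.

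Club cells are secretory cells of the conducting airways. They release secretoglobins into the fluid that lines the airway, oxidise inhaled chemicals with cytochrome P450 enzymes, and act as progenitors that can renew themselves and give rise to ciliated cells. Some take on mucus-secreting features, with the mucin Muc5b and the secretoglobin Scgb3a1 as markers of such airway secretory cells.

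Promoter stretches are shown for the P450 gene used in the rule and for the secretoglobin by which club cells are divided in the results that follow. These are also the only 2 of the 6 windows read that held the motif marked in them. Both were read from RefSeq (GRCm38.p6, plus strand, bases 200 to 51 before the start annotated there). The gene positions given further on are from GENCODE M21, whose starts for these 2 genes differ from the RefSeq starts. Capitals mark TCAAGTG, a motif of the NK-2 class of homeodomain factors to which Nkx2-1 belongs, or its reverse complement.
Cyp2f2, chr7:27119755-27119904: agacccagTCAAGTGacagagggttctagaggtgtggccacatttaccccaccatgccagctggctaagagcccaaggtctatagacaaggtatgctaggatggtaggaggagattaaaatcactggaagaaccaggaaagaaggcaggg
Scgb3a1, chr11:49663395-49663544: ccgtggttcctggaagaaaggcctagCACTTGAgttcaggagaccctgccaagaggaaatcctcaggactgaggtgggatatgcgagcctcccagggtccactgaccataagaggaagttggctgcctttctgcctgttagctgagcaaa
Of 11 secretory genes looked up, 6 had an entry. Searched on both strands with 9 motifs, TCAAGTG was found in the windows of Cyp2f2 and Scgb3a1 and in 1.74% of the same window of all 32851 promoters. The overlapping CTCAAG was found in Scgb3a1 and in 8.2% of all promoters. TATAAA was found in Reg3g and in 6.61% of all. The other motifs, TGTTTAC (1.91% of all), TGTTTGC (2.59%), TGTTTGT (3.59%), AAACAAA (5.28%), TTGCNNAA (5.98%) and TGACTCA (2.79%), were in none of the 6 windows. A match describes these letters only.

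Scgb1a1 (chromosome 19, bases 9083636 to 9087958, GRCm38), the secretoglobin that defines the club cell, took a median of 54.2% of a member's UMIs, with a range from 0.476% to 76.8%. Its median count was 2569.5 UMIs, from 61 to 18195. In 13 members (4.11%) Scgb1a1 was under 10% of UMIs, with medians of 1.61% and 2158 genes. Of these, 1 in p21Het 3 held 18042 UMIs, where all members of that library held 55525 UMIs besides Scgb1a1. Another in p21mTertCD 2 held 24070, against 91139. They stay in all sums and levels, and their part in the levels was not tested. Cyp2f2 (chromosome 7, bases 27119909 to 27133660), the P450 that activates naphthalene, had a median of 16 UMIs and reached 397. Scgb3a2, a second secretoglobin and the marker that the rule did not use, had a median of 42 UMIs and reached 704, and 17 of 316 members had none. The first 2 are present in every member by the rule. The Scgb1a1 threshold lay in a sparse stretch, with the nearest 5 members at 61 to 86 UMIs and the nearest 5 excluded barcodes at 5 to 40. The Cyp2f2 threshold cut a filled one, with 43 members at 5 or 6 UMIs and 66 otherwise eligible barcodes at 3 or 4.

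The upper limit on UMIs cut through the club cells. A further 217 barcodes met every gene threshold and the mitochondrial limit but held more than 30000 UMIs, with a median of 53595 UMIs and 4726 genes. The 316 members had medians of 5632.5 UMIs and 832 genes. The 5 deepest members held 28208 to 29864 UMIs and the 5 nearest barcodes beyond the limit 30437 to 31054. Together the 217 held 12398065 UMIs, against 2594205 in all members. Their share of all club barcodes without the limit was 50.0% for WT, 10.5% to 48.8% for p21Het, 26.2% to 58.5% for p21mTert and 36.8% to 44.1% for p21mTertCD. Shares, counts of calls, gene lists and the genes described most fully are therefore also given with this limit lifted, a setting chosen after the data were seen.

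Members fell along a second range, that of the mitochondrial share. It had a median of 1.75%, and 166 of 316 members (52.5%) lay under 2%, with 29 members between 1.5% and 2.5%. Those under 2% had medians of 667 genes and 4307 UMIs, and Scgb1a1 took 57.7% of their UMIs. The 150 members at or above 2% had 1480 genes, 8400 UMIs and 6.20% mitochondrial UMIs. Members under 2% made up 5 of 22 for WT, 19.0% to 72.5% for the p21Het libraries, 19.4% to 67.7% for p21mTert and 57.9% to 62.5% in p21mTertCD, so the p21Het and the p21mTert libraries lay far apart among themselves.

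**Figure D1:**
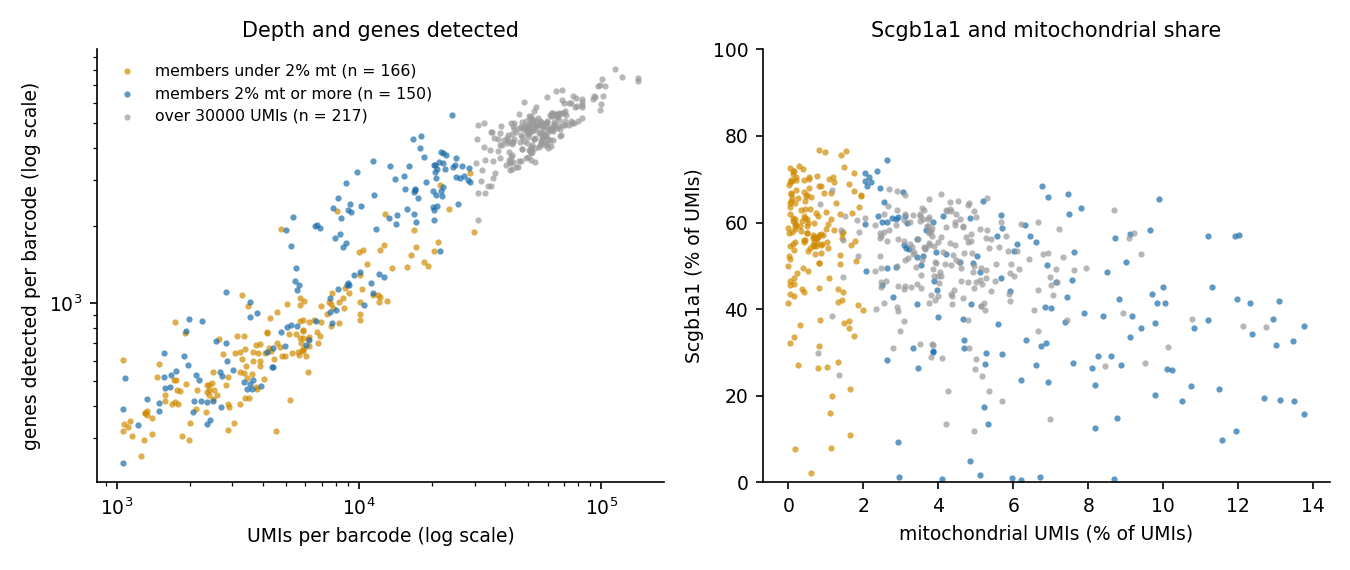
Left, genes detected against UMIs for each barcode on log axes; right, Scgb1a1 against mitochondrial UMIs, both as a percent of the barcode's UMIs. Points are the 166 members under 2% mitochondrial UMIs, the 150 members at 2% or more, and the 217 barcodes that met the gene thresholds with over 30000 UMIs; the low-mitochondrial members lie at low gene number and high Scgb1a1 share.

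Levels are given from here on as CPM, the UMIs of a gene per 1000000 UMIs other than Scgb1a1, summed over the barcodes named. The long noncoding nuclear RNA Malat1 was at 6560 CPM in members under 2% mitochondrial UMIs, 34308 in the other members and 19436 in the barcodes over 30000 UMIs, and was lower under 2% in 10 of 11 libraries. Neat1, another nuclear RNA, was at 377, 2032 and 1992 CPM in the same order. The haemoglobin RNA Hbb-bs, made by red cell precursors, was at 9297, 394 and 84.1 CPM, and the neutrophil alarmin S100a8 at 695, 44.4 and 22.4 CPM. Nuclear RNAs were thus low in the low-mitochondrial members. The blood-cell RNAs came from few of them: 10 of the 166 held 90.0% of their Hbb-bs UMIs, and 1 held 253 of their 297 S100a8 UMIs. An Hbb-bs UMI was found in 63.3% of members under 2% and 56.7% of the others, and a S100a8 UMI in 19.9% and 22.0%. Hbb-bs was higher under 2% in 10 of 11 libraries and S100a8 in 9.

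Among airway genes, Wfdc2, a secreted protease inhibitor, was at 12304 CPM under 2% and 6755 in the other members, and the glutathione transferase Gsta3 at 980 and 509, both higher under 2% in 11 of 11 libraries. Scgb3a2 was at 34462 and 16286 CPM and was higher under 2% in 9 of 11. In the other direction, Por, the reductase that feeds electrons to P450 enzymes, was at 500 and 1031 CPM, and Pigr, the receptor that carries IgA into the airway lumen, at 355 and 841, both lower under 2% in 11 of 11 libraries. The immediate early gene Jun was at 973 and 2742 CPM. Whether these low-gene barcodes were whole cells was not tested.

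Markers of other cell types were read from lists of 4 to 11 genes. The goblet or mucous markers summed to a median of 1399 CPM over the 11 libraries (504 to 4750). Basal markers summed to a median of 14.5 CPM (0 to 108), with Krt14 and Ngfr at 0 in every library. Tuft markers reached 43.9 CPM in the highest library, with Pou2f3, Trpm5, Avil and Gnat3 at 0. Mesothelial markers reached 13.1, with Upk3b, Wt1 and Lrrn4 at 0. Neuroendocrine markers reached 129, with Chga at 0 and 4 of 5 genes detected. The ciliated list stood at 703 CPM, against 14278 in ciliated barcodes, and the AT2 list at 6127, against 227266 in AT2 barcodes. Both lists include the genes that the rule capped in members and that defined the ciliated and AT2 barcodes. Part of each difference was therefore set by the selection. Erythroid markers ranged from 43.9 to 16281 CPM between libraries, neutrophil markers from 31.1 to 4381, and fibroblast markers from 0 to 2315. Macrophage and monocyte markers, which include the capped gene Ptprc, ranged from 72.0 to 2133 CPM, endothelial markers from 7.23 to 1036 and B cell markers from 0 to 506. Alveolar type 1 markers ranged from 448 to 3275, smooth muscle and pericyte markers from 0 to 98.8 and T and NK cell markers from 0 to 52.8.

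Club cells were set beside ciliated barcodes (at least 5 UMIs of the 3 ciliated genes, 1515 barcodes) and AT2 barcodes (at least 5 UMIs of Slc34a2 and Lamp3, 2859). Lymphocyte barcodes (at least 3 UMIs of Cd3e and Cd79a, 24437) were the background of RNA released from other cells. Median depths were 5632.5 UMIs in club, 14063 in ciliated, 19458 in AT2 and 5046 in lymphocyte barcodes. Scgb1a1 itself took 0.176% of UMIs in lymphocytes, 0.182% in ciliated and 0.101% in AT2 barcodes, against 45.9% in club barcodes, as medians over libraries. The club and AT2 values were set in part by the Scgb1a1 limits of their rules. All levels compared between classes are such medians, without a test, because club barcodes were chosen by expression.

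Secreted proteins were high in club barcodes to differing degrees. Scgb3a2 was at 23032 CPM (11455 to 30668 over the 11 libraries) in club, 38.5 in ciliated, 11.9 in AT2 and 34.6 in lymphocyte barcodes. With each barcode thinned to 1000 UMIs, 89.2% of members had a Scgb3a2 UMI (exact binomial 95% interval 85.3% to 92.4%), against 3.6% of lymphocytes; without thinning the shares were 94.6% and 15.4%. Intervals cover counting error only. Haptoglobin, Hp, was at 8193 CPM in club, 731 in ciliated and 842 in AT2 barcodes, and Wfdc2 at 7834, 2973 and 2694. The mucin Muc5b was at 666 CPM in club barcodes (86.9 to 2877), 1.24 in ciliated and 0.357 in AT2. After thinning, 14.2% of members and 0.0655% of lymphocytes had a Muc5b UMI.

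Enzymes of xenobiotic metabolism divided between the airway classes. Cbr2, a carbonyl reductase, was at 11720 CPM in club, 5783 in ciliated and 2257 in AT2 barcodes, and the microsomal glutathione transferase Mgst1 at 3434, 460 and 424. Fmo2, the lung flavin monooxygenase, was at 450 CPM in club and 8.51 in ciliated barcodes, and the aldehyde oxidase Aox3 at 420 and 5.38. Cyp2f2 was at 10190 CPM in club, 2154 in ciliated and 45.4 in AT2 barcodes. The retinaldehyde dehydrogenase Aldh1a1 differed less, at 1797 in club and 1606 in ciliated barcodes with 4.64 in AT2, and so did Cyp4b1, at 505 and 449. Other P450 genes were lower in club barcodes in every library. Cyp2a5 was at 18.7 CPM in club against 456 in ciliated barcodes, and Cyp2s1 at 17.5 against 1165.

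Surfactant genes were shared with AT2 cells in part. The collectin Sftpa1 was at 5016 CPM in club, 63.6 in ciliated and 23665 in AT2 barcodes. Sftpb, which spreads surfactant lipid, was at 2557, 31.8 and 9687, and Sftpd at 1119, 75.1 and 5152. Sftpc, made by AT2 cells, was at 702 CPM in club barcodes and 495 in lymphocytes, against 164024 in AT2 barcodes, so its club level was near the background. After thinning, a Sftpb UMI was found in 64.9% of members and 4.14% of lymphocytes. The sodium channel subunit Scnn1b was at 201 CPM in club, 0.896 in ciliated and 18.3 in AT2 barcodes, and the claudin Cldn10 at 395, 5.63 and 0.161. The airway factor Sox2 was at 61.9, 160 and 0.161 CPM and the lung factor Nkx2-1 at 150, 161 and 311.

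**Figure D2:**
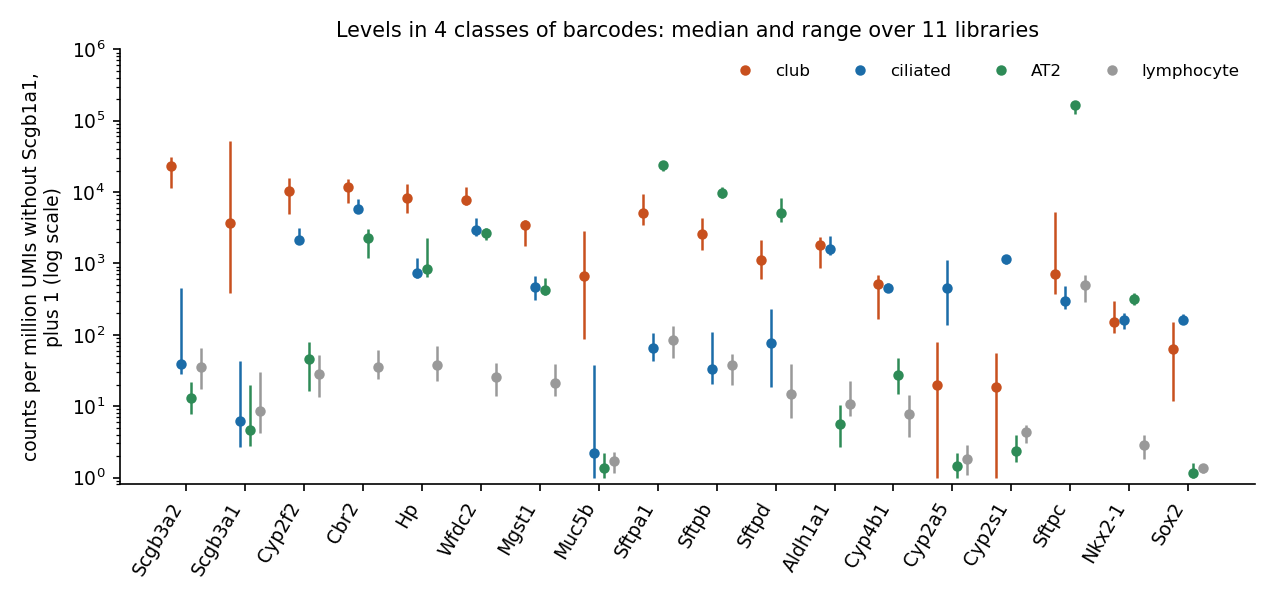
Levels of 18 genes (CPM without Scgb1a1, plus 1, log axis) in club, ciliated, AT2 and lymphocyte barcodes; points are medians and lines the range over 11 libraries. Scgb3a2, Scgb3a1 and Muc5b stand above the other classes, Cyp2a5 and Cyp2s1 are higher in ciliated barcodes, and Sftpa1, Sftpb and Sftpd lie between the ciliated and AT2 levels.

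Scgb3a1 (chromosome 11, bases 49663610 to 49665118), a small secretoglobin of mucus-secreting airway cells, varied more between libraries than Scgb3a2, from 384 to 51898 CPM. It was absent from 209 of 316 members, and 61 members (19.3%) held at least 10 UMIs. Members with at least 10 numbered 7 of the 22 from WT and 3, 5 and 4 from the p21Het libraries. The p21mTert libraries gave 16, 1, 6, 4 and 1, and the p21mTertCD libraries 13 and 1. The share ran from 2.94% to 51.6% within p21mTert and from 5.26% to 54.2% within p21mTertCD, so libraries lay far apart within both genotypes. As a level, Scgb3a1 was at 51898 CPM in p21mTertCD 1 and 483 in p21mTertCD 2. Of the 217 barcodes over 30000 UMIs, 77 held at least 10.

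The members with at least 10 Scgb3a1 UMIs carried other mucus and defence RNAs. Tff2, a trefoil peptide, was at 1982 CPM in them and 56.1 in the other members, and Muc5b at 2811 and 243. Tff2 was found in 47 of the 61 and 26 of the other 255, and Muc5b in 43 and 34. Bpifb1, a secreted defence protein, was at 2395 and 8.27, and the antimicrobial lectin Reg3g at 3399 and 13.8. Few members carried these RNAs: Bpifb1 was found in 25 of the 61 and Reg3g in 27, with 5 of the other 255 for each. Of the UMIs in the 61 members, 10 members held 81.4% for Bpifb1 and 94.4% for Reg3g. Agr2, an isomerase needed for mucin folding, gave 34 UMIs in 11 of the 61 members and 1 UMI in the others, and the mucin Muc5ac 17 in 11 members and 2. Pigr was at 1501 and 463 CPM. Some xenobiotic and surfactant genes were lower in the 61 members: Cbr2 was at 7831 and 12216, Gsta3 at 338 and 743, Sftpb at 1300 and 2971 and Sftpd at 744 and 1634. Others were nearly even, with Mgst1 at 2947 and 2975 and Sftpa1 at 5839 and 6094, or differed less, with Cyp2f2 at 8296 and 10633 and Aldh1a1 at 1326 and 1751. Haptoglobin, Hp, was at 5745 and 9694. Median depth differed less, at 6604 UMIs and 984 genes against 5354 and 781. These levels were pooled over libraries, and p21mTert 1 (16) and p21mTertCD 1 (13) supplied the most of the 61 members.

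Across members, the rank correlation of Scgb3a1 with Tff2 was 0.61, with Muc5b 0.57, with Reg3g 0.48, with Bpifb1 0.47 and with Lypd2 0.44 (n = 316 barcodes, pooled over 11 libraries). In the 217 deeper barcodes, which the members did not include, the same values were 0.86, 0.83, 0.75, 0.81 and 0.77. Cbr2 stood at -0.35 in members and -0.67 in the deeper barcodes, and Cyp2f2 at 0.03 and -0.48. Cldn10 and Hopx stood at -0.64 and -0.62 in the deeper barcodes. Both sets share libraries, and the correlations describe these barcodes.

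**Figure D3:**
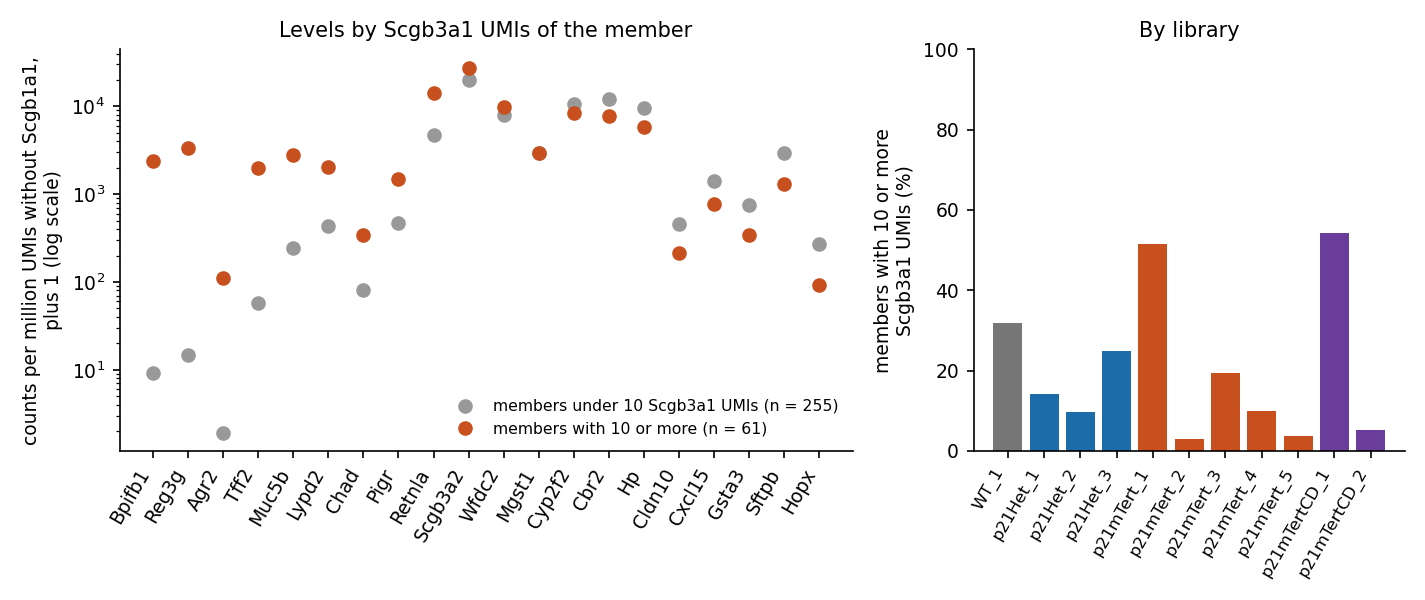
Left, levels of 20 genes (CPM without Scgb1a1, plus 1, log axis) summed over the 61 members with at least 10 Scgb3a1 UMIs and the other members; right, the percent of members with at least 10 in each library. Bpifb1, Reg3g, Tff2 and Muc5b stand higher in the 61 members and Cbr2 and Sftpb lower, and the share runs from 2.94% in p21mTert 2 to 54.2% in p21mTertCD 1.

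Retnla, a secreted resistin-like protein of airway and myeloid cells, also varied by library. It was at 19185 CPM in p21Het 2, 20509 in p21mTertCD 1 and 9969 in p21mTert 4, and between 281 and 2991 in the other libraries. Pooled over libraries, its level was 16187 CPM in members under 2% mitochondrial UMIs and 2691 in the others, and it was higher under 2% in 9 of 11 libraries. Of its UMIs, 10 members held 55.1%, and 176 of 316 members had none. p21Het 2, high in Retnla, supplied 37 of the 166 members under 2%, and p21mTertCD 1 supplied 15.

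The first question between genotypes was whether club cells made up a different share of the lung barcodes. Their share was 0.403% for WT and 0.338%, 0.598% and 0.273% for the p21Het libraries (mean 0.403% ± 0.172 SD, n = 3). It was 0.498%, 0.452%, 0.491%, 0.639% and 0.572% in p21mTert (0.530% ± 0.0745, n = 5) and 0.366% and 0.339% in p21mTertCD (0.353% ± 0.0188, n = 2). The p21mTert and p21Het libraries overlapped, through p21Het 2, while all 5 p21mTert libraries lay above both p21mTertCD libraries. The difference of p21mTert from p21Het was 0.127 percentage points (two-sided exact permutation p = 0.196, adjusted p = 0.589 over 6 tests, higher in 11 of 15 library pairs). Without p21Het 2 it was 0.225 (exact permutation p = 0.0476, unadjusted). From p21mTertCD the difference was 0.178 (exact permutation p = 0.0476, the smallest these libraries allow, adjusted p = 0.286). p21mTertCD and p21Het differed by -0.0503 (exact permutation p = 1), a design that cannot go below 0.1.

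Within the later deposit alone the differences were 0.103 from p21Het (exact permutation p = 0.467) and 0.186 from p21mTertCD (p = 0.133, with a smallest possible exact p of 0.0667). The earlier deposit holds 1 library of each of 3 genotypes and gives no test. In dissociated lung, a share reflects how many cells of each kind were released and captured as well as how many were there, and these cannot be told apart.

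Counted without the upper UMI limit, club barcodes made up 0.794% in WT. They made up 0.646%, 0.639% and 0.393% in p21Het (mean 0.559% ± 0.144 SD, n = 3) and 0.661%, 1.04%, 0.779%, 1.05% and 0.981% in p21mTert (0.902% ± 0.173, n = 5). In p21mTertCD they made up 0.546% and 0.573% (0.559% ± 0.0191, n = 2). Every p21mTert library then lay above every p21Het and p21mTertCD library, the closest being p21mTert 1 and p21Het 1 of the earlier deposit. The difference was 0.343 points both from p21Het (exact permutation p = 0.0357) and from p21mTertCD (exact permutation p = 0.0476), unadjusted and in a setting chosen after the data were seen. Restricted to members with at least 2% mitochondrial UMIs, the differences were 0.0795 (exact permutation p = 0.286) and 0.119 (p = 0.0952).

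Of club plus ciliated barcodes, club barcodes made up 14.6% for WT, 17.4% ± 4.14 (SD, n = 3) for p21Het, 18.2% ± 5.83 (n = 5) for p21mTert and 19.3% ± 2.63 (n = 2) for p21mTertCD. These airway shares overlapped between all groups. The difference of p21mTert was 0.790 points from p21Het (exact permutation p = 0.875) and -1.02 from p21mTertCD (exact permutation p = 0.857), with an adjusted p of 1 for both. With the upper UMI limit lifted for both classes the difference was 4.66 points from p21Het (exact permutation p = 0.179) and 0.0988 from p21mTertCD (exact permutation p = 1), and p21mTertCD stood 4.56 above p21Het (exact permutation p = 0.2).

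**Figure D4:**
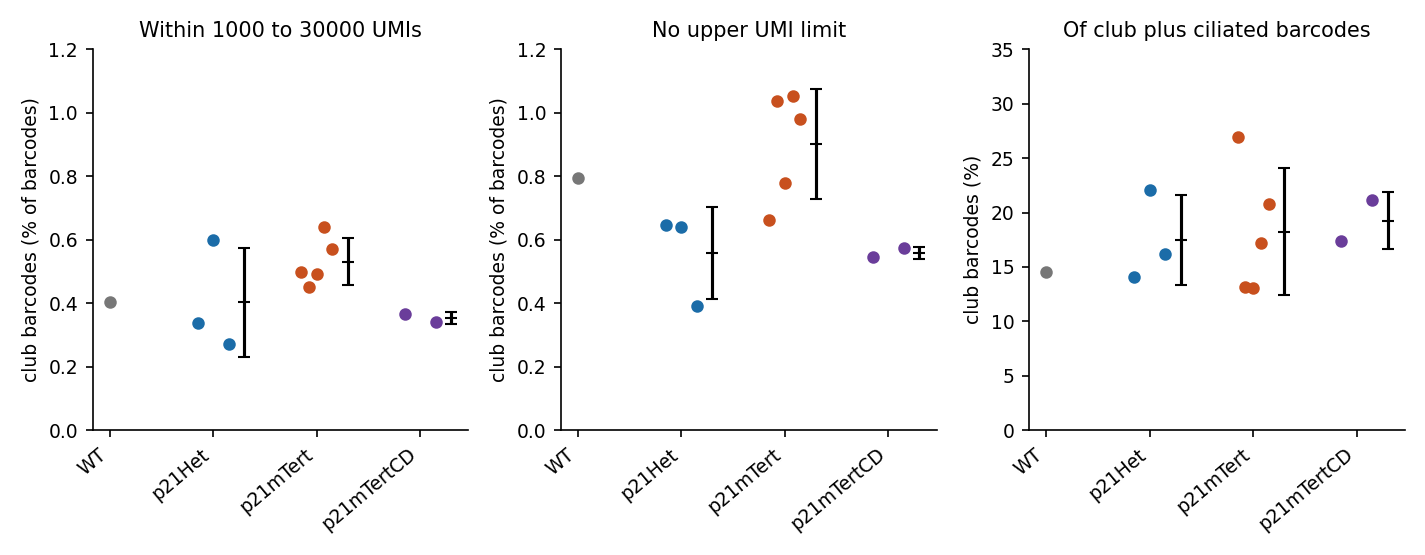
Club barcodes as a percent of barcodes within 1000 to 30000 UMIs (left), of barcodes with no upper UMI limit (middle), and of club plus ciliated barcodes (right). Points are libraries and bars the mean and SD; without the upper limit the 5 p21mTert libraries, from 0.661% to 1.05%, lie above the p21Het and p21mTertCD libraries.

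The genes behind the alleles were barely captured in club cells. Tert (chromosome 13) gave 1 UMI in all members, in p21mTertCD 1. Its count was 0 in p21mTert, where 3 counts would be 4.64 CPM, and 0 in p21Het, where they would be 7.41. With the upper UMI limit lifted it gave 8 UMIs. Of these, p21mTert 2 and 3 held 2 each, and WT, p21Het 1, p21Het 3 and p21mTertCD 1 held 1 each. These data therefore give no check of the mTert allele in club cells. Cdkn1a, the cell-cycle inhibitor p21, gave 4 UMIs in the WT members, 18 in those of p21Het, 12 of p21mTert and 2 of p21mTertCD. As levels these are 34.7, 44.5, 18.6 and 8.72 CPM. With the upper UMI limit lifted, 147 UMIs put Cdkn1a at 15.3 to 41.8 CPM in p21Het, 8.29 to 24.4 in p21mTert, 29.4 and 8.77 in p21mTertCD and 20.4 in WT, so the groups overlapped. Of 8 genes set apart in earlier results on these libraries, Lrmda gave 9 UMIs in members, all in p21Het (3, 5 and 1). Gm47283 gave 94, Wdfy1 86, Cd59a 23, Rell1 21 and Camk2b 11, and Ifi208 and Gm10600 none. Wdfy1 was at 17.5 to 66.3 CPM in p21Het and 57.9 to 180 in p21mTert, which overlap. With the limit lifted it was at 25.5 to 45.9 and 67.8 to 110 CPM, without overlap and not called (1.16, edgeR adjusted p = 0.299). The share of all genes without overlap was not counted in that setting.

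UMIs summed over the members of each library were compared with edgeR's quasi-likelihood test, with Benjamini-Hochberg adjustment over 2163 genes and a call at an adjusted p under 0.05. Fold changes are log2 and scaled by edgeR's TMM factors. Between p21mTert and p21Het, 0 of 2163 genes (0%) were called, with 75 at an unadjusted p under 0.05. Library values did not overlap between these groups for 58 of the 2163 genes (2.68%), the share to set beside any gene described as without overlap. DESeq2 called 0, with 69 unadjusted. On counts simulated for 1844 genes from these libraries, the test recovered 29.3% of genes changed 2-fold and 93.2% of those changed 4-fold, with 7 false calls. Recovery was counted among changed genes that passed the filter on low counts. Every simulated library was drawn from the same pooled profile, without the differences in cell make-up seen between the real libraries. These percentages therefore do not give the recovery in the real libraries.

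Among the secretory products, Scgb3a2 was lower in p21mTert libraries. It was at 30668, 28799 and 24620 CPM in p21Het, 18512, 19440, 12732, 23352 and 11455 in p21mTert, 19996 and 29230 in p21mTertCD, and 23032 in WT. The p21Het and p21mTert ranges did not overlap. The difference was -0.65 (SE 0.23, unadjusted p = 0.0126, edgeR adjusted p = 0.998), so it did not pass. Without the upper UMI limit it was -0.30 (adjusted p = 0.994), and the ranges overlapped, at 33040 to 36264 CPM in p21Het and 21456 to 38090 in p21mTert. Scgb3a2 was higher in members under 2% mitochondrial UMIs, whose share ran from 19.0% to 72.5% over the p21Het and 19.4% to 67.7% over the p21mTert libraries; its part in the difference was not tested. Other abundant products, Hp, Wfdc2 and Scgb3a1, overlapped between p21Het and p21mTert.

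The genes of smallest p that stood higher in p21mTert were Icam1, Clic5, Cul1, Arhgap31 and Irf1, none of them called. Icam1 (chromosome 9, bases 21015985 to 21028817), an adhesion molecule for leukocytes, was at 66.3, 65.6 and 72.0 CPM in p21Het and 496, 43.5, 238, 310 and 253 in p21mTert. It was at 79.5 and 187 in p21mTertCD and 104 in WT. The difference from p21Het was 1.93 (SE 0.50, edgeR adjusted p = 0.806). The library p21mTert 2 lay below the p21Het libraries and the other 4 above them; without it the difference was 2.22 and called (adjusted p = 0.0198). With the upper UMI limit lifted, Icam1 was at 67.3 to 168 CPM in p21Het and 74.8 to 337 in p21mTert, a difference of 0.71 (adjusted p = 0.994). Clic5, an intracellular chloride channel protein, was at 61.2 to 90.1 CPM in p21Het and 70.8 to 412 in p21mTert (1.65); with the limit lifted the difference was 0.61 (adjusted p = 0.787). Clic5 is also on the list of alveolar type 1 markers, which summed to 448 to 1081 CPM in p21Het and 485 to 3275 in p21mTert; the part of such cells in either gene was not tested.

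The genes of smallest p that stood lower were Cbr3, Saa3, Trf, Aldh3a1 and Gclm. Transferrin, Trf, which carries iron, was at 721, 1137 and 1243 CPM in p21Het and 454, 522, 367, 531 and 655 in p21mTert, with 636 and 669 in p21mTertCD and 1294 in WT. Every p21mTert library lay below every p21Het library (-0.98, SE 0.28, edgeR adjusted p = 0.806). With the limit lifted the Trf groups overlapped, at 721 to 914 CPM in p21Het and 662 to 941 in p21mTert (-0.02, adjusted p = 0.999). Aldh3a1, an aldehyde dehydrogenase, was at 182, 297 and 270 CPM in p21Het and 97.3 to 140 in p21mTert, also without overlap (-1.09, SE 0.33, adjusted p = 0.806). Gclm, a subunit of the enzyme that starts glutathione synthesis, was at 90.1 to 124 CPM in p21Het and 15.5 to 56.2 in p21mTert and was not called. With the limit lifted both genes overlapped. Aldh3a1 was at 175 to 384 CPM in p21Het and 168 to 245 in p21mTert (-0.67), and Gclm at 93.4 to 165 and 69.1 to 93.9 (-0.73), neither called. The acute-phase gene Saa3 was at 91.2, 267 and 0 CPM in p21Het and at 0 in all p21mTert libraries, and p21Het 2 supplied 61 of its 72 p21Het UMIs. Saa3 was called without p21Het 3 (adjusted p = 0.00279) and with 7 barcodes marked as doublets left out (adjusted p = 0.00697), a setting in which p21Het 3 has too few barcodes to enter. It was also called with at least 30 barcodes per library (adjusted p = 4.17e-09), where p21Het 2 is the 1 p21Het library left.

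Gene lists are described by their tested members, against a median difference of 0.0075 over all 2163 genes, and no member of any of the 15 lists was called in this comparison. Of 27 secretory products tested, 9 lay above 0 with a median of -0.21, and with the upper UMI limit lifted 10 of 32 (median -0.23). Of 29 genes of xenobiotic metabolism, 11 lay above 0 (median -0.25), and 12 of 38 with the limit lifted (median -0.17). Of 17 antioxidant genes, 4 lay above 0 (median -0.30, with 4 at an unadjusted p under 0.05), and 5 of 25 with the limit lifted (median -0.27). Of 13 genes of ion and fluid transport, 4 lay above 0 (median -0.72), but 7 of 19 with the limit lifted (median -0.02). All 14 junction and keratin genes tested lay above 0 (median 0.45), but 12 of 20 with the limit lifted (median 0.14). Krt8, for instance, was at 378 to 929 CPM in p21Het and 449 to 1362 in p21mTert, which overlap. Of 19 immediate early and heat shock genes, 15 lay above 0 (median 0.38), and of 18 transcription factors and Notch genes 13 (median 0.20), with 20 of 35 when the limit was lifted (median 0.08). Of 30 interferon response genes only 3 passed the filter on low counts, and of 33 p53 and senescence genes only 5. With the limit lifted, 11 of 12 interferon genes tested lay above 0 (median 0.46), against a median of -0.005 over all genes, and 0 were called. In the later deposit alone 8 of 13 did (median 0.10). Of 20 p53 and senescence genes tested with the limit lifted, 10 lay above 0 (median -0.003).

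Between p21mTert and p21mTertCD, 1 of 2163 genes (0.0462%) was called, with 112 at an unadjusted p under 0.05. Library values did not overlap between these groups for 194 genes (8.97%). Tnfaip2 (chromosome 12, bases 111442469 to 111455018), a protein induced by tumour necrosis factor, was at 145 and 296 CPM in p21mTertCD and 63.4, 36.2, 20.7, 0 and 28.1 in p21mTert. It was at 49.7, 105 and 54.0 in p21Het and 86.8 in WT. Both p21mTertCD libraries lay above all others. In these members the neutrophil markers summed to 4381 and 76.8 CPM in p21mTertCD 1 and 2 and 31.1 to 370 in p21mTert, and the fibroblast markers to 7.23 and 2315 against 0 to 74.9; their part in the Tnfaip2 value was not tested. The difference was -3.00 (SE 0.55, edgeR adjusted p = 0.0429), and within the later deposit alone -3.33 (adjusted p = 0.0119). Without the upper UMI limit it was -1.13 and not called (adjusted p = 0.797). Tnfaip2 was called in 11 of 23 alternatives (adjusted p from 3.7e-06 to 0.797). It lost the call without p21Het 3, any 1 of p21mTert 2 to 5 or p21mTertCD 2, with differences from -3.19 to -2.67. It also lost it with a term for the deposit (-3.00, adjusted p = 0.108), with barcodes marked as doublets left out (-2.70, adjusted p = 0.329) and in members with at least 2% mitochondrial UMIs (-2.63, adjusted p = 0.493). It was not called by DESeq2 (adjusted p = 0.264), which called 2 other genes, Gpx3 and Gm26917, nor with the replicate block (-2.26, adjusted p = 0.348).

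Not called but of smallest p were Errfi1, an inhibitor of epidermal growth factor receptor signalling, and F3, tissue factor. Errfi1 was at 260 and 274 CPM in p21mTertCD and 645 to 1236 in p21mTert (1.5, SE 0.34, edgeR adjusted p = 0.219). F3 was at 36.1 and 21.9 CPM against 104 to 421 (2.65, SE 0.64, adjusted p = 0.219). For both genes p21Het lay near p21mTert, at 481 to 929 CPM for Errfi1 and 162 to 254 for F3. With the upper UMI limit lifted, Errfi1 was at 771 to 782 CPM in p21mTertCD, within the p21Het range of 576 to 989, and its difference from p21mTert was 0.26 (adjusted p = 0.926). F3 was then at 132 to 218 CPM in p21mTertCD and 209 to 389 in p21mTert (0.48, adjusted p = 0.926). Mal2, Psip1 and Jade1 followed. Lower in p21mTert were Sh3bgrl, Tacc1, Timp2 and Itgb1. Tacc1 was at 560 CPM in p21mTertCD 2 and 43.4 in p21mTertCD 1, and Timp2 at 406 and 72.3. The same p21mTertCD 2 held the fibroblast markers at 2315 CPM, against 7.23 in p21mTertCD 1, and their part in these values was not tested. Itgb1, an integrin subunit, was even, at 195 and 219 CPM in p21mTertCD and 65.2 to 122 in p21mTert; with the limit lifted it was at 102 to 114 and 66.3 to 122.

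Among the lists, 5 of 27 secretory products lay above 0 in p21mTert against p21mTertCD (median -0.66), and 3 of 17 genes of endoplasmic reticulum protein folding (median -0.46). With the limit lifted these were 6 of 32 (median -0.52) and 6 of 24 (median -0.21). Junction and keratin genes lay above 0 in 12 of 14 (median 0.43), but in 11 of 20 with the limit lifted (median 0.04). The median over all 2163 genes was 0.02, and no list member was called.

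Between p21mTertCD and p21Het, 0 of 2163 genes (0%) were called by edgeR, with 95 at an unadjusted p under 0.05, while 348 (16.1%) had library values that did not overlap. DESeq2, over 14200 genes, also called 0. Of the genes of smallest p, Itgb1, Ccdc47, Sh3bgrl, Cebpd and Tacc1 stood higher in p21mTertCD and F3, Jade1, Errfi1, Sms and Cat lower. The stress-linked factor Cebpd was at 130 and 571 CPM in p21mTertCD and 66.3 to 131 in p21Het. Catalase, Cat, which breaks down hydrogen peroxide, was at 116 and 187 CPM against 288 to 555 (-1.12, SE 0.41, edgeR adjusted p = 0.897), and the difference was -0.16 with the limit lifted. This comparison shares its p21mTertCD and p21Het libraries with the other comparisons.

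With the barcodes over 30000 UMIs added, 7135 genes could be tested. Between p21mTert and p21Het 1 gene (0.0140%) was called. Atf3 (chromosome 1, bases 191170296 to 191218039), a stress-induced transcription factor of the immediate early response, was higher in p21mTert than in p21Het. It was at 754, 502 and 618 CPM in p21Het, 1271, 1001, 1339, 1026 and 1128 in p21mTert, 661 and 598 in p21mTertCD, and 1140 in WT. All p21mTert libraries lay above all p21Het and p21mTertCD libraries and around WT, and the share of all genes without such overlap was not counted here. The difference from p21Het was 0.87 (SE 0.15, edgeR adjusted p = 0.0453). Leaving out each library in turn, Atf3 stayed between 0.78 and 0.97 and was called in 3 of 10 cases, losing the call without p21Het 2 or 3 or any 1 p21mTert library (highest adjusted p = 0.314). It was called by DESeq2 (adjusted p = 0.0011) and with the replicate number as a block (adjusted p = 0.0442). With 28 barcodes marked as doublets left out, 7 of them over 30000 UMIs, it was at 0.86 and not called (adjusted p = 0.0553). In the members alone the groups overlapped, at 219 to 638 against 333 to 1964 CPM (1.40, SE 0.55, adjusted p = 0.998). Of 22 immediate early and heat shock genes, 19 then lay above 0 with a median of 0.23, against -0.00467 over all genes. Atf3 was the 1 gene called, and Egr1 was at 0.48 and Junb at 0.43.

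Against p21mTertCD, 2 of 7135 genes (0.0280%) were called. Golm1, a Golgi membrane protein, was at 119 and 100.0 CPM in p21mTertCD and 49.7, 36.7, 36.6, 59.8 and 36.6 in p21mTert, with 62.7 to 103 in p21Het and 116 in WT (-1.495, SE 0.23, adjusted p = 0.00862 in edgeR). Srgn, the core protein of a granule proteoglycan of leukocytes, was at 75.3 and 56.1 CPM against 11.2 to 33.1 (-1.93, SE 0.34, adjusted p = 0.0362). In the same barcodes the neutrophil markers summed to 1177 and 52.6 CPM in p21mTertCD 1 and 2 and 33.9 to 232 in p21mTert, and their part in the Srgn value was not tested. In the members alone both genes overlapped. Golm1 was there at 57.8 and 0 CPM in p21mTertCD 1 and 2 and 7.24 to 25.9 in p21mTert, and Srgn at 260 and 32.9 against 9.36 to 84.5. Between p21mTertCD and p21Het 0 of 7135 (0%) were called, with 316 at an unadjusted p under 0.05 in edgeR. Golm1 lost its call without p21mTert 3 (adjusted p = 0.0573) or p21mTertCD 1 (0.0911), and Srgn in 5 of 10 such cases. DESeq2 called Golm1 and not Srgn. With the marked barcodes left out neither was called, and the difference was -1.37 for Golm1 (edgeR adjusted p = 0.125) and -0.41 for Srgn (adjusted p = 0.975).

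The count of calls depended on p21Het 1, the p21Het library of the earlier deposit. In the later deposit alone, with 2 p21Het and 4 p21mTert libraries and the added barcodes, 18 of 7157 genes (0.252%) were called between p21mTert and p21Het, 9 in each direction. DESeq2 on all libraries called 2. With the marked barcodes left out, 16 of the 18 kept their call, and Ier2 and Pdk4 lost it. In the members alone, the later deposit gave 0 calls of 2153 genes, with 107 at an unadjusted p under 0.05 in edgeR. These genes were named after their values were seen, by passing this test. Lifting the limit added 6 and 8 barcodes to p21Het 2 and 3, and 48, 21, 30 and 22 to p21mTert 2 to 5. In p21Het 3, 1 of the 8 held 114021 UMIs, against 83251 in all members of that library. The part of single deep barcodes in these calls was not tested.

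Genes of glutathione and thioredoxin metabolism were among the 9 called lower in p21mTert. Gclc, the catalytic subunit of the enzyme that starts glutathione synthesis, was at 564 and 687 CPM in p21Het 2 and 3 and 198 to 285 in the 4 later p21mTert libraries (-1.52, SE 0.20, edgeR adjusted p = 0.00119). In the earlier deposit it was at 256 in p21Het 1, 279 in p21mTert 1 and 212 in WT, so the difference was not seen there. In the members alone Gclc overlapped, at 428 and 360 CPM in p21Het 2 and 3 and 72.4 to 416 in the later p21mTert libraries. Txnrd1, a thioredoxin reductase, was at 186 and 259 CPM against 105 to 122 (-1.05, adjusted p = 0.00595), with 90.0 in p21Het 1. Gpx2, a glutathione peroxidase, was at 590 and 490 against 238 to 319 (-1.05, adjusted p = 0.0145), with 255 in p21Het 1. Gss, which completes glutathione, and Adh7, an alcohol dehydrogenase, were also called lower. In the members alone, p21Het 2 and 3 and the later p21mTert libraries did not overlap for Txnrd1 (166 and 126 against 65.5 to 114 CPM) or Gpx2 (581 and 504 against 159 to 316). Nor did they for Gss (122 and 144 against 50.7 to 93.6), while Adh7 overlapped. These members are part of the barcodes in which the genes were called, so their values are not a separate test. The share of all genes without overlap between these libraries was not counted. Of the 25 antioxidant genes tested, 3 were called lower and 5 lay above 0, with a median of -0.50 against 0.0042 over all genes.

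The 9 called higher included Atf3, the stress-response genes Ier2 and Gadd45b, Vpreb3, and Sec14l3, which is on the list of ciliated markers. Sec14l3 was at 239 and 287 CPM in p21Het 2 and 3 and 646 to 1012.5 in the later p21mTert libraries (1.51, edgeR adjusted p = 0.00119). Over all libraries with the limit lifted, the ciliated markers summed to 276 to 759 CPM in p21Het and 683 to 1049 in p21mTert. The part of ciliated cells in these calls was not tested. Gadd45b was at 151 and 268 CPM in p21Het 2 and 3 and 336 to 537 in the later p21mTert libraries (1.12, SE 0.21, edgeR adjusted p = 0.0174). It was at 528 CPM in p21Het 1, 505 in p21mTert 1 and 320 in WT. In the members alone it was at 136 and 90.1 CPM in p21Het 2 and 3 and 116 to 637 in the later p21mTert libraries, which overlap. Cyp4b1, a P450 of fatty acids and furans, was at 165 and 353 CPM against 575 to 750 (1.32, adjusted p = 0.00581), with 800 in p21Het 1 and 500 in p21mTert 1. Cd59a, a complement regulator and one of the genes set apart earlier, was at 0 in p21Het 2 and 3 and 24.4 to 28.5 CPM in the later p21mTert libraries, with 15.3 in p21Het 1 and 19.3 in p21mTert 1. In the members alone, the same libraries did not overlap for Cyp4b1 (166 and 396 against 495 to 565 CPM) or Cd59a (0 and 0 against 26.5 to 51.8, from 23 UMIs over all libraries). Here too the members are part of the barcodes in which the genes were called, and the share of all genes without overlap was not counted. For Gclc, Txnrd1, Gpx2, Gadd45b and Cyp4b1, p21Het 1 lay within the p21mTert range or beyond it on the side away from p21Het 2 and 3. Its age label and its deposit differ from theirs, and the part of either cannot be told apart. In the later deposit 7 genes (0.0978%) were called against p21mTertCD. Gadd45b and Cd59a were higher in p21mTert, and Golm1, Srgn, Tyrobp, Fn1 and Wfdc3 lower. With the marked barcodes left out, Gadd45b, Cd59a and Wfdc3 kept their call and the other 4 lost it. Srgn and Tyrobp are leukocyte genes and Fn1, fibronectin, a gene of fibroblasts. The fibroblast markers summed to 18.4 and 421 CPM in the p21mTertCD libraries and 5.42 to 144 in p21mTert, and the part of such cells in these calls was not tested. No gene was called (0%) between p21mTertCD and p21Het, where 367 had an unadjusted p under 0.05.

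**Figure D5:**
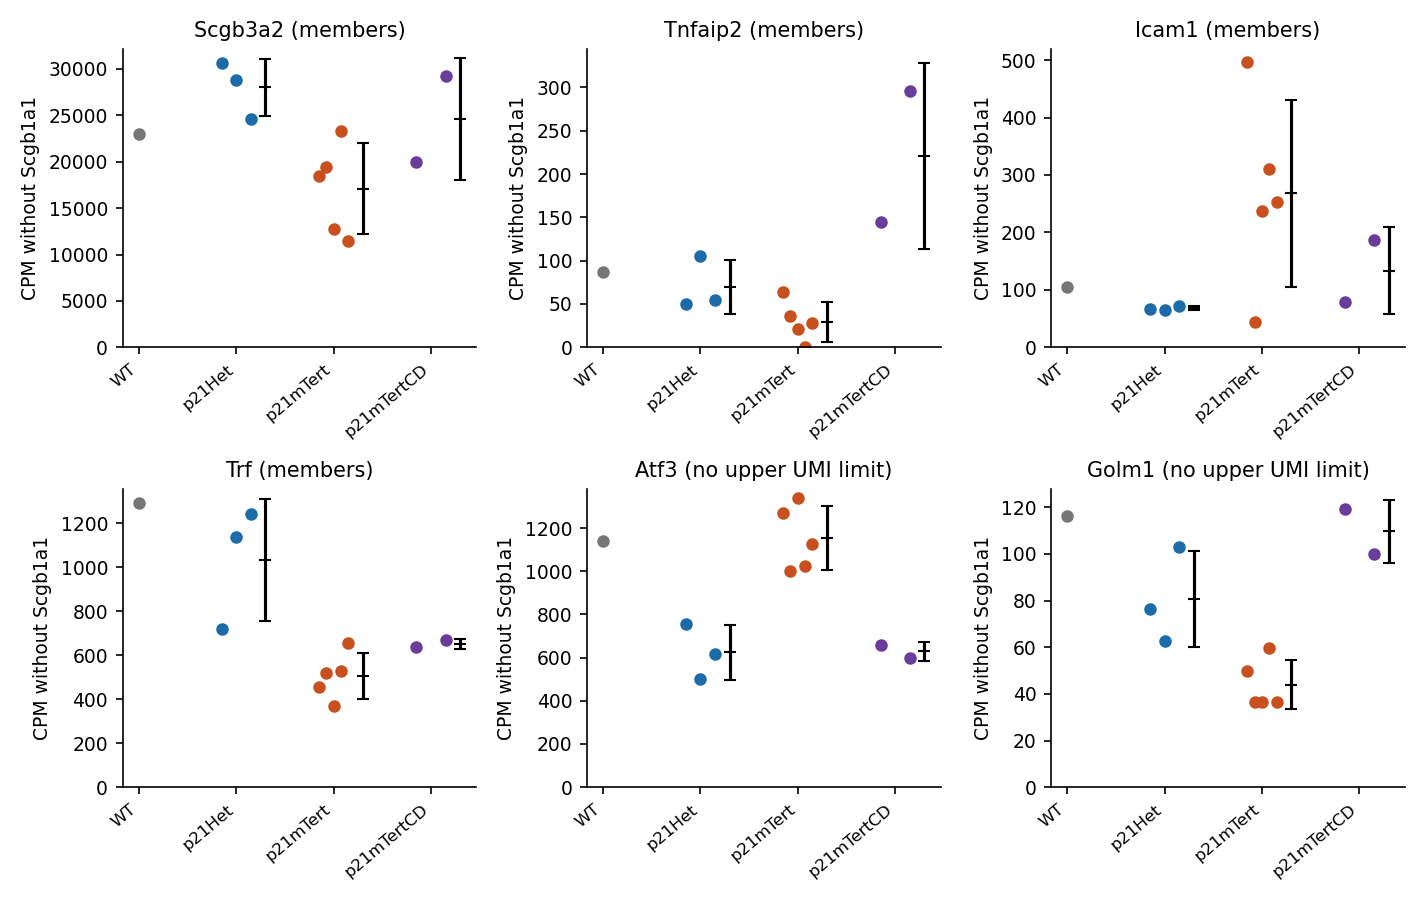
Levels of 6 genes (CPM without Scgb1a1) in each library by genotype, with the mean and SD where a group has more than 1 library. Scgb3a2, Tnfaip2, Icam1 and Trf are from the members and Atf3 and Golm1 from members plus barcodes over 30000 UMIs; Tnfaip2 and Golm1 stand higher in p21mTertCD than in p21mTert, and Atf3 lower in p21Het than in p21mTert.

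Whether the p21mTert difference from p21Het was larger or smaller in club cells than in other epithelium was tested as an interaction, with the library as a block. Against AT2 cells 7 of 9013 genes (0.0777%) were called and against ciliated cells 7 of 8920 (0.0785%). The interaction of Icam1 against ciliated cells was called under 10 of 11 alternatives, and not with the upper UMI limit lifted for club barcodes (1.68, adjusted p = 0.934). Its club mean was 68.0 ± 3.53 CPM (SD, n = 3) in p21Het and 268 ± 162 (n = 5) in p21mTert, and its ciliated mean was 51.3 ± 38.7 and 23.6 ± 8.82. In the members the interaction was 2.99 on the log2 scale (SE 0.46, edgeR adjusted p = 6.21e-07). The spread behind this p-value was estimated over many genes together, so it does not measure the spread of Icam1 itself between libraries. In p21mTert 2 the club level was 43.5 CPM, below the p21Het mean, while the other 4 libraries lay above it. With the limit lifted, 1 of 10176 genes (0.00983%) was called against AT2 cells, Clu at 1.54 (adjusted p = 8.94e-06), and 3 of 10543 (0.0285%) against ciliated cells, Hp at 0.78, Gadd45g at 1.15 and Iglc3, an immunoglobulin gene, at 4.13.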

How the data were processed

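The deposited files hold raw UMI counts per gene and barcode for 81983 barcodes and 31053 genes. Per the submitters' processing notes they were made with Cell Ranger on mm10; the authors' later filters and normalization are not in these counts. Library totals ran from 42038434 to 85988955 UMIs and filter-passing barcodes from 4721 to 8525, with median depths of 4133 to 6454 UMIs. Barcode sequences seen in more than 1 library numbered 617 of 68646, 1 of them among members. Genes were placed with GENCODE M21 (30934 identifiers found). Every barcode that met the rule was kept, including 5 that also met the lymphocyte rule and 7 marked as doublets by Scrublet (scanpy 1.11.5), which scored barcodes within the UMI limits. Scored again with no upper limit, 7 of the 217 deeper barcodes and 21 members were marked.

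The members and gene lists were chosen with earlier results of these data known. UMIs were summed per library (at least 15 members) and fitted over all 10 libraries of the 3 tested genotypes with edgeR 4.0.16 (limma 3.58.1, R 4.3.3; filterByExpr, TMM, robust quasi-likelihood test), without the 8 rule genes and mitochondrial genes. DESeq2 1.42.0 was an alternative. Shares were compared by exact permutation of libraries (Python 3.11.15, numpy 2.4.6, scipy 1.17.1, pandas 2.3.3; figures with matplotlib 3.10.9). The fit was tested on simulated counts of 1844 genes, drawn for every library from the same pooled profile. All genes changed 8-fold or 16-fold were recovered there, with 7 false calls.

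Genes were named by rule: the rule genes, Scgb3a2, Cdkn1a, Tert and 8 genes set apart earlier. To these were added up to 10 called genes in each direction, filled up to 5 by smallest p at a mean of at least 10 CPM, and the up to 4 most abundant tested members of each list. Genes compared between classes or by Scgb3a1, and Retnla, were chosen after their values were seen. Reads of near-identical copies, such as haemoglobin, Saa and Reg3 genes, may be split between them. Replicate numbers 1 to 3 of p21Het and p21mTert deviated together over 247 genes (correlations 0.62, 0.159 and 0.487). Numbers shared with p21mTertCD did not (-0.528 to -0.273). Libraries of different numbers were not correlated, so these values cannot show that the numbers are pairs, and the libraries numbered 1 share the earlier deposit. A block for the number left the count of calls between p21mTert and p21Het at 0.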

Additional observations from a re-analysis of the deposited data

Results flagged for a closer look

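In 5 of 44 groups of library values tested, 1 library stood apart from the other 4 p21mTert libraries by Dixon's ratio; chance gives about 5%. Scgb3a1 was at 12830 CPM in p21mTert 3 and 384 to 3664 in the others. p21mTert 1, of the earlier deposit, stood apart in Cbr3 at 148 CPM against 37.4 to 65.2, Tacc1 at 106 and Wdfy1 at 180. The long noncoding RNA Gm47283 was at 253 CPM in p21mTert 5 and 31.7 to 88.0 in the others.

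The other results are interactions, in which the p21mTert difference from p21Het was called as different between club cells and another epithelial class (edgeR adjusted p under 0.05). The spread behind these p-values was estimated mostly over many genes together. They therefore do not measure the spread of each gene itself between libraries. Against AT2 cells they were Clu 1.81, Chil3 1.83, Spink5 4.54, Pon1 -1.65, Aldh3a1 -1.85, Ccl20 -5.42 and Saa3 -9.26 on the log2 scale. Clusterin, Clu, a secreted chaperone, was at 202 ± 146 CPM (SD, n = 3) in p21Het and 323 ± 123 (n = 5) in p21mTert club cells, and at 307 ± 150 and 136 ± 39.2 in AT2 cells; it was called in 8 of 11 alternatives, the one with the upper UMI limit lifted among them. Saa3, Ccl20 and Spink5 rested on few UMIs: p21Het 2 gave 61 of 72 p21Het Saa3 UMIs, 1 p21Het library gave all 13 p21Het Ccl20 UMIs, and Spink5 had 1 UMI in p21Het and 20 in p21mTert club cells. For Chil3, which is on the macrophage and monocyte marker list, 1 library gave 152 of 167 p21Het UMIs. Its p21mTert club levels ran from 36.2 to 1869 CPM, and it was called in 3 of 11 alternatives. For Clu, 1 library gave 84 of 107 p21Het club UMIs. Each of the 7 lost its call in at least 3 alternatives.

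Against ciliated cells they were Icam1 2.99, Hba-a2 2.37, Lgals3 2.09, Clic5 1.88, Clu 1.65, Pdk4 -2.89 and Dcn -6.15. Icam1 kept its call in 10 of 11 alternatives, losing it with the upper UMI limit lifted (1.68), and Dcn in 8, while the other 5 lost theirs in at least 5. Dcn, a fibroblast proteoglycan, had 36 UMIs in p21Het club cells, 29 of them from 1 library, and Hba-a2 is a haemoglobin gene.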

How the results depend on the processing

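Few UMIs per library (55525 to 228726 besides Scgb1a1) limit the gene tests, and 2 p21mTertCD libraries limit every comparison with that allele. The share difference of p21mTert from p21Het was 0.343 points without the upper UMI limit, and 0.0624 to 0.225 leaving out each library. From p21mTertCD it was 0.195 with barcodes thinned to 2000 UMIs (exact permutation p = 0.286), 0.119 at 2% mitochondrial UMIs or more, 0.186 in the later deposit and 0.151 to 0.197 leaving out each library. Leaving out a library allows no exact p under 0.0667 there. p21mTertCD minus p21Het ran from -0.115 to 0.0474, turning without p21Het 2. The airway share changed direction: p21mTert minus p21Het was -3.07 in the later deposit, 4.66 without the limit and -1.39 to 3.11 leaving out each library, p21mTert minus p21mTertCD was 0.0988 without the limit, 0.722 at 2% or more and -3.20 to 0.844, and p21mTertCD minus p21Het was 4.56 without the limit and -0.0532 to 4.12.

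Calls between p21mTert and p21Het numbered 0, but 1 without a filter on low counts, 1 without Scrublet-marked barcodes (Saa3, with p21Het 3 dropping under 15 barcodes), 8 with at least 30 barcodes per library (leaving 1 p21Het and 4 p21mTert libraries), 1 without the UMI limit and 0 to 1 leaving out each library. Against p21mTertCD there was 1 call, but 2 by DESeq2, 92 without the filter, 0 without Scrublet-marked barcodes, 0 with a deposit term, 2 with the replicate block (Gsn and Ctgf), 2 without the UMI limit, 0 at 2% mitochondrial UMIs or more and 0 to 65 leaving out each library (65 without p21mTertCD 1, 7 without p21mTertCD 2). p21mTertCD against p21Het had 0, but 53 without the filter and 0 to 56 leaving out each library (56 without p21mTertCD 1). The interactions numbered 7, with 3 against AT2 without the filter, 1 without the UMI limit and 2 to 10 leaving out each library, and against ciliated cells 3 without the UMI limit and 3 to 10 leaving out each library (3 without p21Het 3). The replicate block gave 0 calls in the other 2 contrasts. No label says that the numbers are pairs, and only libraries of the same number were correlated. The causes of these changes were not tested. With no upper UMI limit the calls ran from 0 to 18, 0 to 24 and 0 to 10 in the 3 contrasts as each library was left out, and numbered 2, 8 and 4 with the replicate block, 2, 1 and 0 by DESeq2 and 0, 0 and 0 without Scrublet-marked barcodes.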
